A study of Mus musculus with 6 samples.

Results

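Abca4, Slain2, Iqgap1, Slc35f4 and Ncam2 are 5 mouse genes beside which Jmjd1c, Spt16 and Oct4 each left a called ChIP-seq region at the same place. They were chosen by measured values, with a listed region in all 3 deposited lists as a condition. Their presence and read levels are therefore described here without a test. Each gene was named by 1 region in each list, which gives 15 regions out of 1542. Of the 11 places where regions of all 3 lists overlapped by at least 1 bp, 5 belong to these genes, and the other 6 serve as a comparison below.

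The chromatin came from C57BL/6 mouse embryonic stem cells with a tet-ON Oct4 gene, a copy that doxycycline switches on. All groups had been differentiated with retinoic acid. The libraries used are Jmjd1c ChIP, Spt16 ChIP, Oct4 ChIP and input (chromatin with no antibody step), each from cells given doxycycline for 10 h. There was 1 library per antibody, and the sources used here do not give the number of cultures or clones behind it. Cell identity cannot be read from tables of bound regions. An Oct4 ChIP and an input library at 0 h belong to the series and were not analysed here. The intervals given with levels and ratios therefore hold counting error and nothing else, and since the reads carry no molecular identifiers, PCR copies may be among them. In bulk chromatin, binding in more cells and stronger binding per cell cannot be told apart. Library totals were 26736842 reads for Jmjd1c, 36669596 for Spt16, 15543450 for Oct4 and 14592994 for the input.

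Oct4, encoded by Pou5f1, is a POU-family transcription factor that binds an octamer DNA element and keeps embryonic stem cells pluripotent. Spt16 is a subunit of FACT, the histone chaperone that loosens and rebuilds nucleosomes. Jmjd1c is a Jumonji-domain protein of the family of histone H3 lysine 9 demethylases. The 5 genes are not known for a common pathway. Abca4 is a transporter of photoreceptor outer segments that moves retinal bound to phosphatidylethanolamine across the disc membrane, and its human counterpart is mutated in Stargardt disease. Slc35f4 belongs to the solute carrier 35 family, related to nucleotide-sugar transporters, and its cargo is not established. Slain2 is a microtubule plus-end protein that promotes microtubule growth. Iqgap1 is a scaffold that joins actin, calmodulin and the small GTPases Cdc42 and Rac1. Ncam2 is an immunoglobulin-family adhesion molecule known from olfactory axons.

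No genome of the build the regions are given on (mm9) was used here, so the DNA under the regions is not shown. The upstream DNA of the genes was read from RefSeq on GRCm38.p6, whose coordinates are not those of the regions. It is shown for Abca4, which had the most reads, and for Slain2, the gene whose region lay upstream of its start, because none of the 15 regions was called at a start, the nearest being 11.8 kb away. Each is the 250 bases before the annotated start, on the plus strand, at chr3:122044210-122044459 for Abca4 and chr5:72914112-72914361 for Slain2, with CpG dinucleotides in capitals.
Abca4: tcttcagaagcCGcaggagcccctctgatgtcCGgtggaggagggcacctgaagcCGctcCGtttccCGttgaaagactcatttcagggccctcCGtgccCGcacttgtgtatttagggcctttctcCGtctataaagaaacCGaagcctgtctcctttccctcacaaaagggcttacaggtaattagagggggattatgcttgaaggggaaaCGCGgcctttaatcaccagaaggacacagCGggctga
Slain2: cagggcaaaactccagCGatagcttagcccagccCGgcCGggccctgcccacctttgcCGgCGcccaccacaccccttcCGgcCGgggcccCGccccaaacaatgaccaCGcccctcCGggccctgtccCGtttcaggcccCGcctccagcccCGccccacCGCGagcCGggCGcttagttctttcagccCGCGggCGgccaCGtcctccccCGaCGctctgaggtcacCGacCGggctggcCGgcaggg
Abca4 had 12 CpG and 54.4% G or C, and Slain2 26 CpG and 74.4%. The other genes ranged from 10 CpG at Slc35f4 to 32 at Ncam2. Over 32841 such stretches in the table the median was 6 CpG and 52.4% G or C. The octamer ATGCAAAT, or ATTTGCAT on the other strand, was in 526 of them (1.60%) and in 0 of these 5. That describes these windows alone and says nothing of Oct4 at the regions, which lie elsewhere.

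At Abca4 (ENSMUSG00000028125) all 3 proteins had more reads than at any of the other 4 genes. The region lay on chromosome 3, at 121848310 to 121848729 for Jmjd1c, 121848231 to 121848784 for Spt16 and 121848236 to 121848751 for Oct4 (mm9, as for each region below). In the best window of each region, the stretch of about 200 bp with the strongest enrichment, there were 46 Jmjd1c, 217 Spt16 and 84 Oct4 reads, against 0 input reads in each. In RPM, the reads scaled to a library of 1000000, that is 1.72 for Jmjd1c (95% Poisson interval 1.26 to 2.29), 5.92 for Spt16 (5.16 to 6.76) and 5.40 for Oct4 (4.31 to 6.69). Against a floor of 3 input reads, 0.206 RPM, the enrichment was at least 8.37-fold, 28.8-fold and 26.3-fold for Jmjd1c, Spt16 and Oct4. Here and at the other loci the bound concerns the input alone and takes the ChIP reads as counted. From the low end of their Poisson interval it would be 6.13-fold, 25.1-fold and 21.0-fold at Abca4. The region lay inside the gene, 101 kb from the start and 74.6% of the way along its 135.6 kb.

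Slc35f4 (ENSMUSG00000021852), the other transporter-family gene, also had its region inside the gene. It lay on chromosome 14 at 50067480 to 50067726 for Jmjd1c, 50067392 to 50067864 for Spt16 and 50067419 to 50067717 for Oct4, 78.1 kb from the start and 34.3% of the way along 227.5 kb. The best windows held 30 Jmjd1c, 60 plus-strand and 62 minus-strand Spt16, and 32 Oct4 reads, against 0 input reads. These are 1.12 RPM (0.757 to 1.60), 3.33 RPM (2.76 to 3.97) and 2.06 RPM (1.41 to 2.91) for Jmjd1c, Spt16 and Oct4. The lower bounds on enrichment were 5.46-fold, 16.2-fold and 10.0-fold for Jmjd1c, Spt16 and Oct4. Spt16 had the highest RPM of the 3 libraries here, with an interval that overlapped that of Oct4 by a small margin and not that of Jmjd1c.

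Slain2 (ENSMUSG00000036087) was the exception in position. Its region lay outside the gene, 11.8 kb upstream of the start, on chromosome 5 at 73293569 to 73293845 for Jmjd1c, 73293534 to 73293981 for Spt16 and 73293611 to 73293867 for Oct4. The same rows also named Gm9870, whose start was 12441 bp from the Oct4 region, and Tec, a cytoplasmic tyrosine kinase of blood cells, whose start was 34018 bp away. The region cannot be assigned to one of the 3 genes from these tables. The best windows held 35 Jmjd1c, 108 Spt16 and 40 Oct4 reads, against 0 input reads. That came to 1.31 RPM for Jmjd1c (0.912 to 1.82), 2.95 for Spt16 (2.42 to 3.56) and 2.57 for Oct4 (1.84 to 3.50), at least 6.37-fold, 14.3-fold and 12.5-fold over the input floor.

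Iqgap1 (ENSMUSG00000030536) had its region on chromosome 7, inside the gene, 56.7 kb from the start and 61.8% of the way along 91.7 kb. It spanned 87891355 to 87891717 for Jmjd1c, 87891221 to 87891761 for Spt16 and 87891369 to 87891653 for Oct4. The best windows held 33 Jmjd1c, 111 Spt16 and 20 Oct4 reads, against 0 input reads. In RPM these are 1.23 for Jmjd1c (0.850 to 1.73), 3.03 for Spt16 (2.49 to 3.65) and 1.29 for Oct4 (0.786 to 1.99), so that Jmjd1c and Oct4 stood at nearly equal levels and Spt16 above both. Enrichment was at least 6.00-fold, 14.7-fold and 6.26-fold for Jmjd1c, Spt16 and Oct4.

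Ncam2 (ENSMUSG00000022762), the longest of the 5 genes at 423.6 kb, had the fewest reads for each protein. Its region lay on chromosome 16, 280.5 kb into the gene and 66.2% of the way along, at 81481348 to 81481546 for Jmjd1c, 81481202 to 81481791 for Spt16 and 81481352 to 81481535 for Oct4. The best windows held 24 Jmjd1c, 98 Spt16 and 17 Oct4 reads, against 0 input reads, or 0.898 RPM (0.575 to 1.34), 2.67 RPM (2.17 to 3.26) and 1.09 RPM (0.637 to 1.75). The lower bounds on enrichment were 4.37-fold, 13-fold and 5.32-fold for Jmjd1c, Spt16 and Oct4. From the low end of the Poisson interval of the ChIP reads they would be 2.80-fold, 10.6-fold and 3.10-fold. The Jmjd1c and Oct4 levels were close to the fewest reads of any listed region, which were 23 in the Jmjd1c list and 15 in the Oct4 list.

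**Figure D1:**
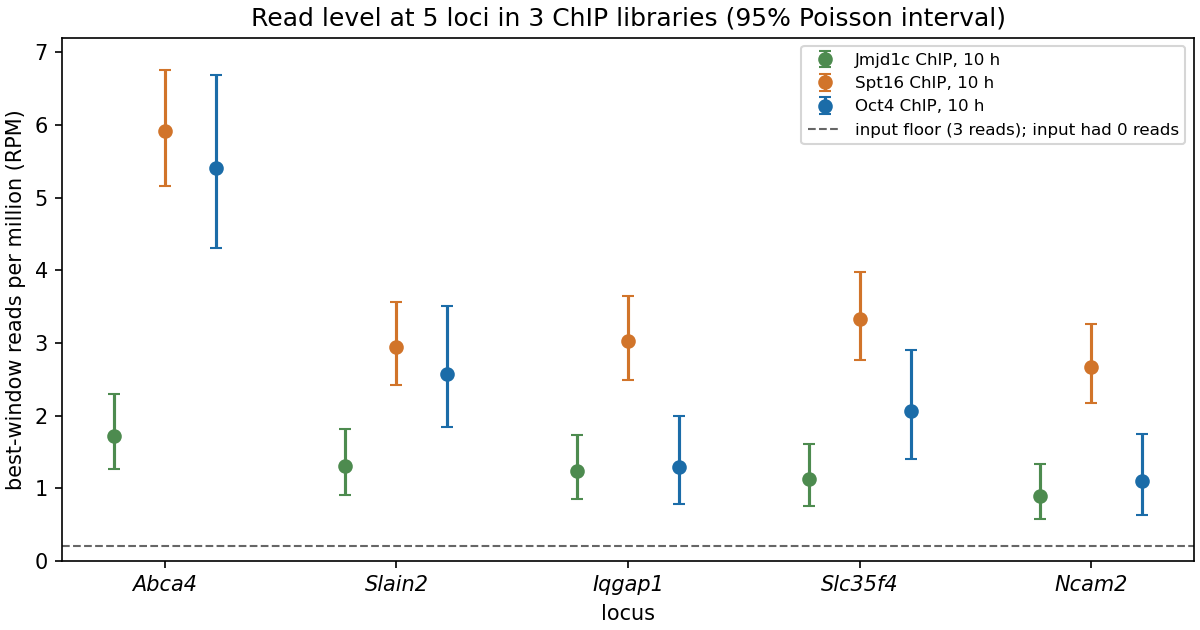
Best-window RPM at each of the 5 loci (horizontal axis) for Jmjd1c, Spt16 and Oct4 ChIP at 10 h, 1 library each, with 95% Poisson intervals as bars and the input floor of 3 reads as a dashed line. Abca4 stands highest for each protein, at 1.72, 5.92 and 5.40 RPM for Jmjd1c, Spt16 and Oct4.

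How far the loci could be ranked depended on the library. In the Oct4 library the order was Abca4, Slain2, Slc35f4, Iqgap1 and Ncam2. Abca4 exceeded Slain2 by a ratio of 2.10 (95% exact binomial counting interval 1.42 to 3.14), and no later step between neighbours in that order exceeded counting error. In the Spt16 library the order was Abca4, Slc35f4, Iqgap1, Slain2 and Ncam2. Abca4 exceeded Slc35f4 by 1.78 (1.42 to 2.24), and the later neighbours, with ratios of 1.03 to 1.1, could not be told apart. In the Jmjd1c library the order was Abca4, Slain2, Iqgap1, Slc35f4 and Ncam2, and no neighbours differed beyond counting error, Abca4 and Slain2 included (1.31, 0.828 to 2.10). From the highest to the lowest locus, reads spanned 1.92-fold for Jmjd1c (1.15 to 3.28), 2.21-fold for Spt16 (1.74 to 2.84) and 4.94-fold for Oct4 (2.91 to 8.88). The range of Jmjd1c is limited from below by the lowest level that was listed at all, 0.860 RPM.

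Places in the lists count listed regions alone. The authors' own numbers skip some entries, and those entries were not analysed here. By the authors' binomial score all 5 were in the top 16 of the 1253 Spt16 regions, where Abca4 was first, Slc35f4 8th, Iqgap1 11th, Slain2 12th and Ncam2 16th. Among 24 Jmjd1c regions, Abca4 was first, Slain2 3rd, Iqgap1 5th, Slc35f4 6th and Ncam2 17th. In the authors' numbering of the Jmjd1c list these are 6, 14, 18, 21 and 44, so that 5 entries numbered above Abca4 are not among the regions analysed here, and its place holds for the listed 24. Among 265 Oct4 regions, Abca4 was first, Slain2 2nd, Slc35f4 10th, Iqgap1 60th and Ncam2 111th. The lists differ in length and in their lowest level (0.860 RPM for Jmjd1c, 0.709 for Spt16 and 0.965 for Oct4), so places are not compared between proteins. Relative to the median region of its own list, the RPM of Ncam2 was 0.738 times for Jmjd1c, 2.65 times for Spt16 and 0.944 times for Oct4. At Abca4 the same ratios were 1.42, 5.86 and 4.67. When ordered by ChIP reads alone, the median place of the 5 genes in the Jmjd1c list moved to the 50th percentile, against the 79.2nd by score.

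**Figure D2:**
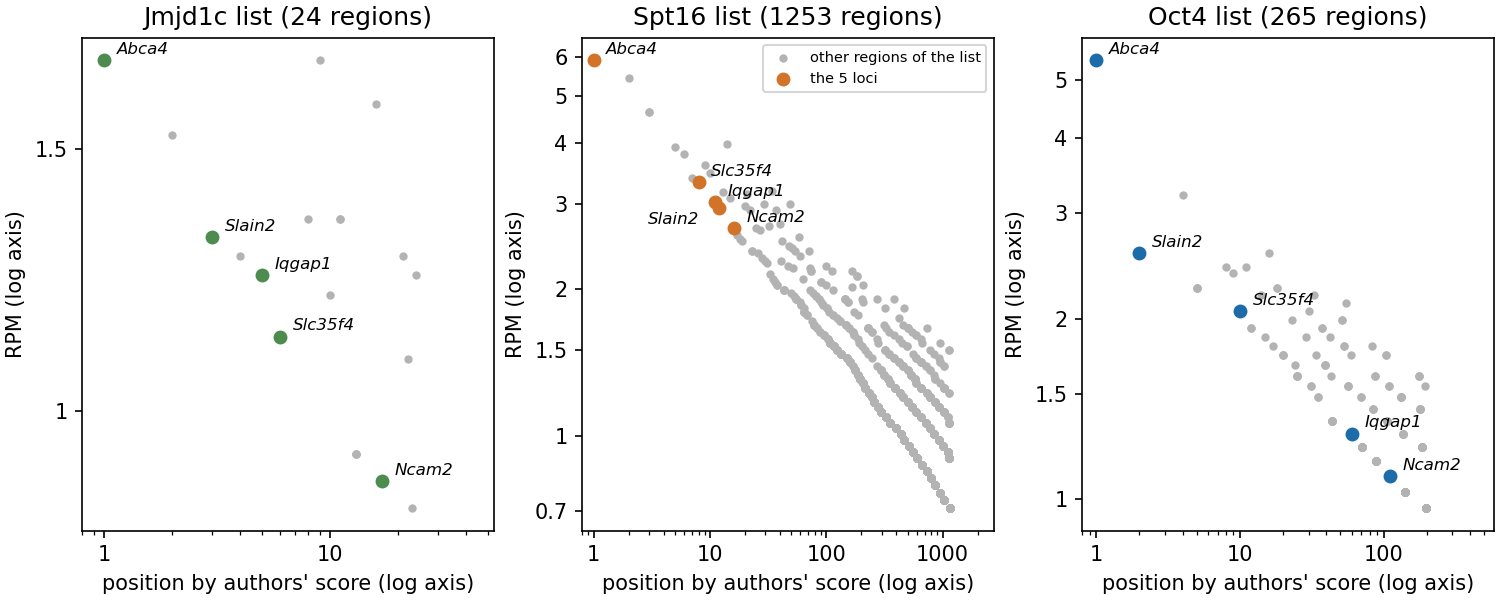
Level in RPM (vertical, log axis) against position by the authors' score (horizontal, log axis) for each region of the Jmjd1c, Spt16 and Oct4 lists, 1 panel each, with the 5 loci in colour and the rest of the list in grey. The lowest place of the 5 loci was 17 of 24 for Jmjd1c, 16 of 1253 for Spt16 and 111 of 265 for Oct4.

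Membership in all 3 lists was a condition of the choice, so the count of 5 out of 5 genes carries no information. The other 6 places met that condition too and were not among the chosen genes. Regions of the whole lists overlapped both other lists in 11 of 24 Jmjd1c regions (45.8%), 11 of 1253 Spt16 regions (0.878%) and 11 of 265 Oct4 regions (4.15%). Just inside the authors' threshold, a Q value score of 13, stood Ncam2 in the Jmjd1c list, with a Q score of 15.2. The strongest region shared by Spt16 and Oct4 but outside the Jmjd1c list was the one nearest a SNORA17 gene, with 199 Spt16 reads (5.43 RPM) and 50 Oct4 reads (3.22 RPM). Levels of Jmjd1c there were not analysed here, since each table gives reads for its own regions.

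Zero input reads fell in each of the 15 best windows. Across whole lists that held for 62.5% of Jmjd1c, 68% of Spt16 and 72.1% of Oct4 regions. The 3 windows at a locus overlap and use a single input library, so the zeros at a locus are not separate observations.

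The 5 loci were mostly far from gene starts. No distance was set by the rule, but a place with no listed gene could not be chosen. Location was therefore not independent of the choice. At other regions in all 3 lists the nearest listed start was 551 bp away at Rif1 and 1986 bp at Pou5f1. It was 5066 bp away at Gm10704 and 12298 bp at the U1 gene, all from the Oct4 region. The places on chromosomes 8 and 9 had no listed gene and so no distance. In each list 4 of the 5 regions lay inside the named gene, against 47.4% of 19 Jmjd1c, 53.5% of 1120 Spt16 and 49.3% of 227 Oct4 regions that had a listed gene. The same 4, at Abca4, Iqgap1, Slc35f4 and Ncam2, were over 50 kb from the nearest listed start. Over the same regions with a listed gene, that share was 26.3% for Jmjd1c, 12.9% for Spt16 and 15.9% for Oct4. Both sets of shares include the 5 loci. They leave out regions with no listed gene, which were 5 of 24 for Jmjd1c, 133 of 1253 for Spt16 and 38 of 265 for Oct4. How far those lie from a gene start is not given. In the Jmjd1c list the 5 loci gave 4 of the 5 regions over 50 kb away and 4 of the 9 inside a gene. With 5 genes chosen in view of earlier results, the contrast is a description of these loci. Whether a region was in an exon or an intron was not analysed here.

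**Figure D3:**
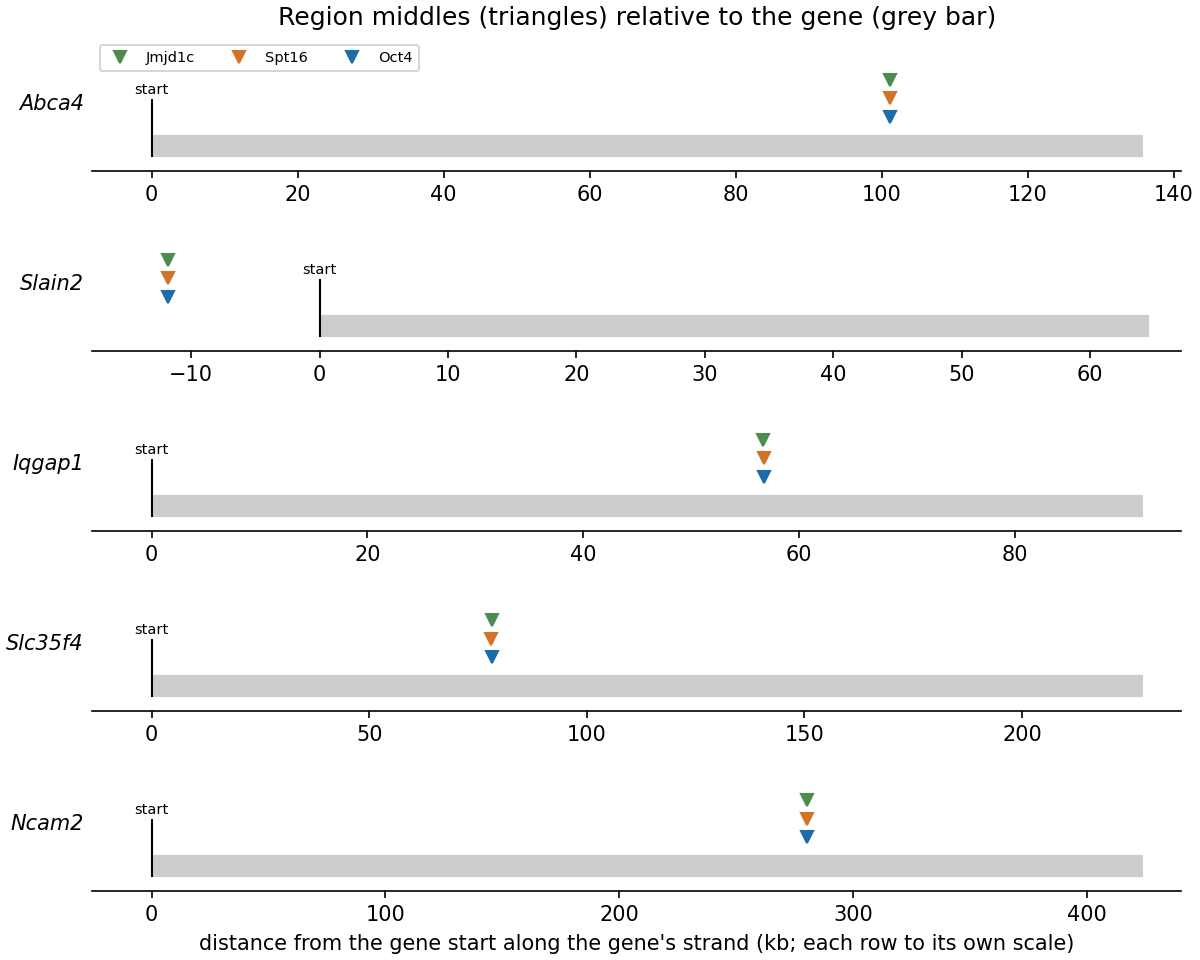
Middles of the Jmjd1c, Spt16 and Oct4 regions (triangles) along each gene (grey bar), as distance in kb from the gene start in the direction of transcription, with each row on its own scale. The triangles of the 3 proteins coincide at each locus, inside the gene at 4 loci and 11.8 kb upstream at Slain2.

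The nearest other region of the same list was farther away for Jmjd1c and Oct4 than for Spt16 at Abca4, Slain2, Iqgap1 and Slc35f4. At these 4 loci 1 other Spt16 region lay within 1 Mb. For Oct4 the nearest other region was 10674 kb away at Abca4, 2187 kb at Slain2, 7346 kb at Iqgap1, 14488 kb at Slc35f4 and 3216 kb at Ncam2. For Spt16, whose list is longer, it was 757.5 kb away at Abca4, 316.9 kb at Slain2, 394.7 kb at Iqgap1, 746.4 kb at Slc35f4 and 3215 kb at Ncam2. For Jmjd1c the nearest was at least 33472 kb away where the chromosome had another, and the Ncam2 region was the sole listed region of chromosome 16. No gene of the 5 had more than 1 region in a list.

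The 3 proteins were read out at nearly the same base pairs. The middles of the Spt16 and Oct4 best windows were 0.5 bp apart at Abca4, 5.5 at Slain2, 6 at Iqgap1, 12 at Ncam2 and 30 at Slc35f4. Over all 168 overlapping Spt16 and Oct4 regions the median distance was 25 bp and the largest 277. Jmjd1c and Oct4 windows were 2.5 bp apart at Slc35f4, 3.5 at Ncam2, 21.5 at Abca4 and 47.5 at Slain2. Iqgap1 stood apart, with the Jmjd1c window 108 bp from that of Oct4 and 102 bp from that of Spt16, which was the largest distance among the 13 overlapping Jmjd1c and Oct4 regions (median 19 bp). The chromatin was sheared to fragments longer than the distances at the 5 loci, per the labels' protocols.

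Spt16 regions were wider than the Oct4 regions they covered. At Abca4 the widths were nearly alike, 419 bp for Jmjd1c, 553 bp for Spt16 and 515 bp for Oct4. At Ncam2 they were 198, 589 and 183 bp, so the Spt16 region was 3.22 times as wide as that of Oct4. At Slain2, Slc35f4 and Iqgap1 the Spt16 region was 1.75, 1.58 and 1.90 times as wide as the Oct4 region. Each Oct4 region lay wholly within its Spt16 region. Over the lists as a whole the median width was 236.5 bp for Jmjd1c, 289 bp for Spt16 and 220 bp for Oct4. The Spt16 library also had the most reads, and the part of depth in these widths was not tested.

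**Figure D4:**
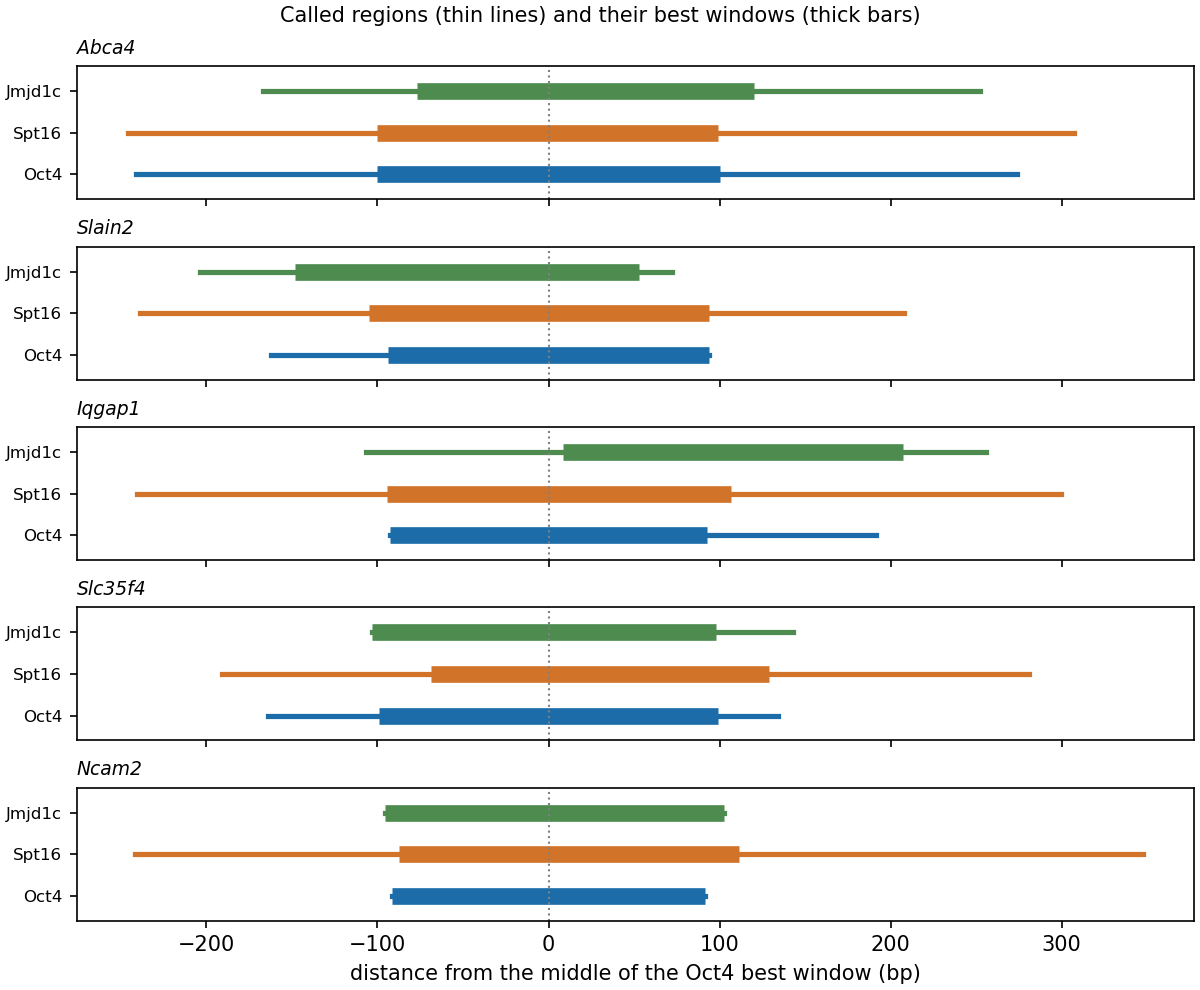
Called regions (thin lines) and best windows (thick bars) of Jmjd1c, Spt16 and Oct4 at each locus, in bp from the middle of the Oct4 best window. The best windows largely coincide at Abca4, Slc35f4 and Ncam2, while the Jmjd1c window is shifted by 47.5 bp at Slain2 and by 108 bp at Iqgap1.

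Reads came from both strands in like numbers. At Abca4 the plus strand gave 24 of 46 Jmjd1c, 116 of 217 Spt16 and 47 of 84 Oct4 reads. Over the 15 regions the plus-strand share ran from 47.2% for Spt16 at Slain2 to 58.8% for Oct4 at Ncam2. The 95% Clopper-Pearson interval included 50% in 15 of 15, as it did in 100% of Jmjd1c, 99.9% of Spt16 and 100% of Oct4 regions of the whole lists. These loci do not differ from the lists in this respect, and the strands give 2 partial counts of the same library, not replicates.

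The balance between proteins differed among the loci. RPM from different antibodies reflects how well each antibody pulls down chromatin as well as occupancy, so a ratio above 1 does not mean more protein, and the comparison of interest is between loci. Spt16 over Oct4 was 1.1 at Abca4 (95% counting interval 0.847 to 1.43) and 1.14 at Slain2 (0.789 to 1.69). It was 1.62 at Slc35f4 (1.09 to 2.47), 2.35 at Iqgap1 (1.45 to 4.0) and 2.44 at Ncam2 (1.45 to 4.36). At the last 3 loci the interval lay above 1, as it did for 12.5% of the 168 overlapping pairs in the whole lists, whose median ratio was 1.14. The 168 pairs include the 5 loci. At the other 6 regions in all 3 lists the ratio ran from 1.49 to 2.57, with a median of 1.77. Slc35f4, Iqgap1 and Ncam2 lay within that range, and Abca4 and Slain2 below it. The intervals of Abca4 on one side and of Iqgap1 and Ncam2 on the other did not overlap, with Slain2 and Slc35f4 between them. Whether a ratio stood above or below 1 varied with the scaling. The contrast between loci stayed with equal medians, which multiply each ratio by 1 factor, and was lost per 100 bp of region. The 3 libraries were also set to equal medians over the regions in all 3 lists. The median of the 5 ratios was then 0.962, against 1.62 by library total, and no interval lay above 1. The 5 loci are themselves among those regions, which draws the median of their ratios towards 1. That setting therefore cannot decide which protein stood higher. Per 100 bp of region, the best-window reads were divided by the width of the whole called region. The median was then 1.02 and again no interval lay above 1. There Ncam2 stood at 0.759 (0.451 to 1.36), below Abca4 at 1.02 (0.789 to 1.33), and Iqgap1 at 1.24 (0.764 to 2.10), so the intervals of these 3 loci overlapped. Best windows were alike in width and regions were not, so this setting follows region width and is not a read density. Ncam2 moved most, with regions of 589 bp for Spt16 and 183 bp for Oct4.

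Among the 5 loci, Jmjd1c was lowest relative to Oct4 at Abca4. Jmjd1c over Oct4 was 0.318 there (0.217 to 0.461), 0.509 at Slain2 (0.314 to 0.821), 0.545 at Slc35f4 (0.320 to 0.926), 0.821 at Ncam2 (0.423 to 1.63) and 0.959 at Iqgap1 (0.534 to 1.76). The interval lay below 1 at the first 3, as for 38.5% of the 13 overlapping Jmjd1c and Oct4 pairs. The 13 pairs include the 5 loci, and 3 of the 5 pairs with an interval below 1 are theirs. The Abca4 ratio was the lowest and the Iqgap1 ratio the highest of those 13, and their intervals did not overlap. The region near Pou5f1 stood close to Abca4, at 0.349, and the other 6 regions in all 3 lists reached up to 0.951. With equal medians, which the 5 loci help to set, Iqgap1 stood at 1.54 and Ncam2 at 1.32, above 1. The interval then lay below 1 at Abca4 alone (0.511, 0.349 to 0.741). Per 100 bp of region it lay below 1 at Abca4 (0.391) and Slain2 (0.472), and the intervals of Abca4 and Iqgap1 overlapped. Jmjd1c over Spt16 varied less, at 0.291 for Abca4 (0.207 to 0.401), 0.336 for Ncam2 (0.205 to 0.529), 0.337 for Slc35f4 (0.218 to 0.506), 0.408 for Iqgap1 (0.268 to 0.606) and 0.444 for Slain2 (0.295 to 0.656). All 5 of these intervals lay below 1, as did 78.6% of the 14 overlapping Jmjd1c and Spt16 pairs, and all 5 overlapped each other. The 14 pairs include the 5 loci. At the other 6 regions in all 3 lists this ratio reached up to 0.610. It was 0.194 at Pou5f1 and 0.202 at Rif1, both lower than at Abca4. With equal medians the ratios of the 5 loci ran from 0.784 at Abca4 to 1.2 at Slain2, with Iqgap1 at 1.1. There 0 of 5 intervals lay below 1, in a setting that draws the median of these ratios towards 1. Per 100 bp of region 3 of 5 did, at Abca4, Iqgap1 and Slc35f4. Since a locus had to reach the lowest listed Jmjd1c level, 0.860 RPM, a low ratio could be seen at loci with many Oct4 or Spt16 reads alone.

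**Figure D5:**
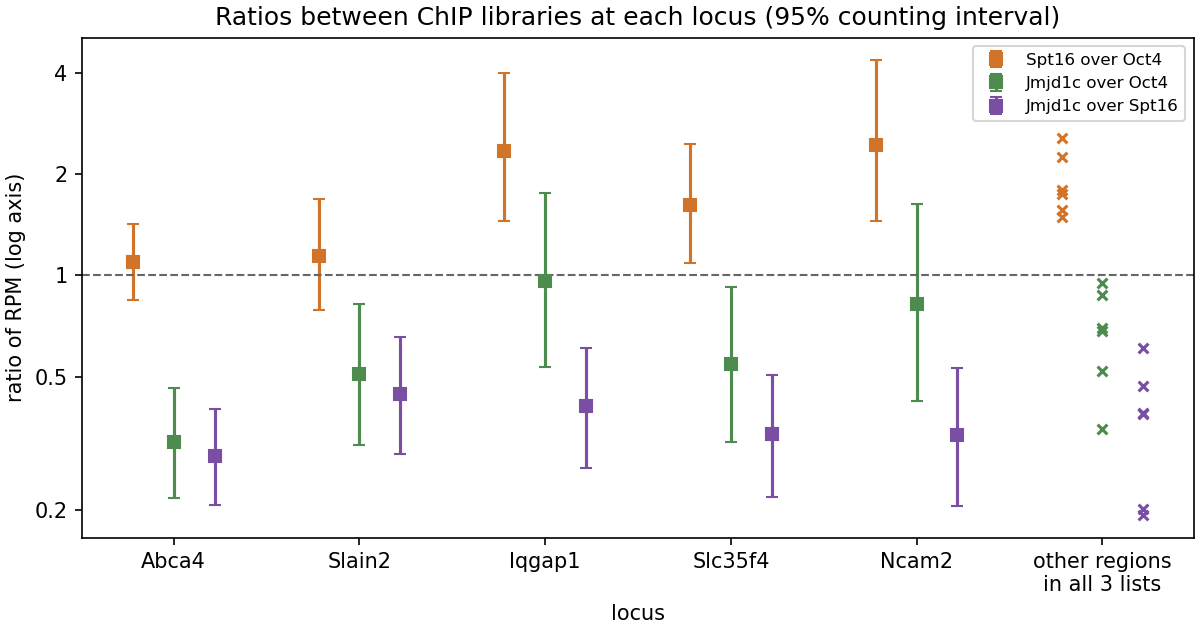
Ratio of RPM (log axis) of Spt16 over Oct4, Jmjd1c over Oct4 and Jmjd1c over Spt16 at each of the 5 loci, with 95% counting intervals, and at the other 6 regions in all 3 lists (crosses, no interval drawn). Spt16 over Oct4 runs from 1.1 at Abca4 to 2.44 at Ncam2, and the crosses lie from 1.49 to 2.57.

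The other 6 places in all 3 lists lay near Pou5f1, Rif1, a U1 gene on chromosome 14, Gm10704, and 2 places on chromosomes 8 and 9 with no listed gene. The 5 genes had medians of 1.23 RPM for Jmjd1c, 3.03 for Spt16 and 2.06 for Oct4, against 1.03, 3.16 and 1.70 at the other 6. Ranges overlapped for each protein, from 0.898 to 1.72, 2.67 to 5.92 and 1.09 to 5.40 RPM at the 5 genes, against 0.898 to 1.53, 2.21 to 4.64 and 1.03 to 2.57. Abca4 exceeded the highest of the other 6 for each protein. For Jmjd1c the highest of them, U1 at 1.53 RPM, lay within the Poisson interval of Abca4 (1.26 to 2.29). Likeness was measured as the Euclidean distance of log2 RPM over the 3 ChIP libraries. Ncam2 was most like the region near Gm10704 (distance 0.22), which had 24 Jmjd1c, 85 Spt16 and 16 Oct4 reads. Iqgap1 was most like the places on chromosomes 9 (0.48) and 8 (0.49). Slain2 and Slc35f4 were most like the U1 region (0.51 and 0.53), followed by the chromosome 9 place (0.77) and Rif1 (0.58), and Ncam2 had the chromosome 9 place second (0.66). Abca4 had no close match, with U1 at 1.4 and Pou5f1 at 1.47.

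Relatives and partners of the 5 genes were seldom named. Of 60 such genes in 6 lists, 0 were in the Jmjd1c gene table, 3 in the Spt16 table and 1 in the Oct4 table, against 0.183%, 9.35% and 1.97% of 21900 protein-coding genes. Those shares are 0%, 5% and 1.67%, close to or below the background. Among 15 other ABCA transporters, Abca7, which acts in lipid transport and phagocytosis, was named by a region 54504 bp from its start with 29 Spt16 reads (0.791 RPM), and by one 54523 bp away with 19 Oct4 reads (1.22 RPM). Cdh1 (E-cadherin, whose cell contacts Iqgap1 regulates) was among 9 Iqgap1 relatives and partners and had 27 Spt16 reads (0.736 RPM) 710 bp from its start, inside the gene. Cntn2, a contactin of axons, was among 11 adhesion molecules and had 26 Spt16 reads (0.709 RPM) 71693 bp from its start. These Spt16 regions stood at positions 867, 1037 and 1166 of 1253, far below the 5 genes. None of 10 visual cycle genes, 10 microtubule plus-end genes or 5 other SLC35F genes was named in any table.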

How the data were processed

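ChIP-seq with antibodies against Jmjd1c, Spt16 and Oct4 was compared with input at 10 h of doxycycline, 1 library each. Per the submitters' processing notes, the tools were CASAVA 1.4 and Bowtie, and the build mm9; no Bowtie version is stated. Per the file headers, the authors called regions against the 10 h input and kept those reaching a log2 ratio of 1 and a Q score of 13; their caller is not named in the sources used here. They also took 10 regions seen without doxycycline out of the Oct4 list. The deposited tables give read counts per strand in the best window, the authors' log2 ratio of scaled ChIP to input reads with 1 read added, and scores, which counts and totals gave back as the negative log10 of a binomial p-value times 10. List numbers skip 28 Jmjd1c, 49 Spt16 and 21 Oct4 entries, not analysed here.

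Counts were summed over strands and scaled to library totals from the file headers (RPM). With 0 input reads, folds are lower bounds against 3 reads, without the counting error of the ChIP reads. Ratios have 95% exact binomial intervals, levels exact Poisson and shares Clopper-Pearson intervals, for counting error only. Regions were matched by an overlap of at least 1 bp. With 1 library per group, no test was made. Genes, regions and lists were chosen with earlier results of these data known. Named genes were the 5 genes, genes in the same rows, the other places in all 3 lists, the 2 most alike for each gene and listed relatives; the SNORA17 region was added as the first one outside the Jmjd1c list. Symbols were matched to 21900 protein-coding genes of RefSeq (GRCm38.p6), used for names and promoters only; 5 of 5 genes matched. Alternatives were other folds, scalings, overlap rules, orders and, added after seeing the data, single strands. Code was tested on simulated data. Software was scipy 1.17.1, numpy 2.4.6, matplotlib 3.10.9 and pandas 2.3.3 under Python 3.11.15.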

Additional observations from a re-analysis of the deposited data

How the results depend on the processing

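No paired analysis was possible because each group held 1 library. The 5 genes kept a region in all 3 lists when 50% of the shorter region had to overlap, when middles had to lie inside each other and by gene name. With the higher-scoring 50% of each list 4 remained. The median enrichment bound of 10.0-fold became 30.0 with a floor of 1 input read and 31.0 by the authors' ratio. That follows from the construction, since all input counts were 0. The median Spt16 over Oct4 ratio of 1.62 became 0.962 with medians set equal over regions in all 3 lists, and 1.02 per 100 bp of region. The 5 loci are themselves among the regions that set the medians, which draws the median of their ratios towards 1. The setting per 100 bp divides best-window reads by the width of the whole region. Under equal medians Slc35f4 turned to 0.962, and Jmjd1c over Spt16 turned to 1.2 at Slain2 and 1.1 at Iqgap1. Jmjd1c over Oct4, within its interval, passed to 1.54 at Iqgap1 and 1.32 at Ncam2. Per 100 bp, Spt16 over Oct4 turned to 0.759 at Ncam2. The median Jmjd1c over Spt16 ratio of 0.337 became 0.910 and 0.647 under these 2 settings. Which ratios stand above 1 therefore varies with the scaling. Equal medians cannot decide which protein stands higher, because the 5 loci help to set them. Equal medians multiply each ratio by 1 factor, so they leave the order of loci as it was; per 100 bp the order follows region width too. On each strand alone, 15 of 15 ratios stayed within their intervals. By ChIP reads the median Jmjd1c percentile was 50, against 79.2 by score. Limited to inside the gene or within 50 kb, 1 listed relative was left for Spt16 and 0 for Oct4. Counting error weighs more on the levels of Jmjd1c, at 24 to 46 reads, and Oct4, at 17 to 84, than on those of Spt16, at 98 to 217.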
